A study of Homo sapiens with 2 samples.

Results

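The genes described here are 32 genes of the ATF4 programme, the transcriptional response to shortage of amino acids and to other stresses that reach translation. They were chosen by name, as the rows of the deposited table whose gene entry is exactly 1 of the 32 symbols. The table listed 32 of them, each on 1 line, out of 12917 named genes in all. None was also named in a locus shared by several genes. In the GENCODE annotation, 12 of the 32 share exon bases with another gene, 7 have a pseudogene or copy bearing their name and 2 hold a short RNA gene, and the largest overlap and the copies of each gene counted as lower or higher are given below.

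The study measured mRNA in A549, an established human lung adenocarcinoma line, in a library labelled MYOCD knockdown and a library labelled wild type, 1 of each. The title of the knockdown sample, however, writes its genotype as MYOCD-/-, the notation of a knockout, and the library is called knockdown throughout as its genotype label has it. MYOCD encodes myocardin, a coactivator of serum response factor in muscle. Per the labels, cells of both groups grew in DMEM with 10% serum and received doxycycline for 72 h, although the design text describes the wild type as untreated. If the wild type cells had no doxycycline, knockdown and drug cannot be told apart. The sources used here do not say how MYOCD was targeted or whether the cells are a clone. With 1 library per group no difference was tested, and every value below is without a replicate error. MYOCD itself had 0.400 RPKM in the knockdown library and 0.881 RPKM in the wild type library (in RPKM, reads are divided by the length of the transcript and by library size). Both values lie under 1 RPKM, the mean required of genes compared below, so the extent of the knockdown is uncertain.

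ATF4 is a basic leucine zipper (bZIP) activator. Kinases that sense uncharged tRNA, unfolded protein, viral RNA or heme shortage phosphorylate the initiation factor eIF2, which slows translation in general while the ATF4 message is translated more. ATF4 protein then pairs with C/EBP proteins on composite C/EBP-ATF response elements and switches on amino acid transporters, tRNA synthetases, serine and asparagine synthesis and feedback genes. Because much of this control acts on translation, the level of the ATF4 message does not show the amount of ATF4 protein. Lung cancer cells, among them cells with overactive NRF2, are known to use ATF4 for serine synthesis.

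The response element can be read in the promoters of some of these genes. RefSeq promoter windows (GRCh38.p14, from 250 bases before to 50 bases after an annotated start) were at hand for 26 of the 32 genes, in 43 windows. The letters TGATGNAA, searched on both strands, occurred in 8 of the 26 genes (30.8%), against 4.46% of 27305 genes in the whole promoter table. The genes were chosen as members of the ATF4 programme, so this contrast describes the choice and is not independent support. Counted by window, the shares were 23.3% of the 43 windows and 3.62% of 35116 windows. Overlapping windows of a gene can hold the same site, as those of MTHFD1L did, so this count repeats sites. The 8 sites are shown with up to 30 flanking bases, 5′ to 3′ on the strand of the gene, with the matched letters in capitals, so that their shared core can be compared.

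ASNS, chr7:97872439-97872506, minus strand: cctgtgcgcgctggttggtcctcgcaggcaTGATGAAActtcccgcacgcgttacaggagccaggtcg
CHAC1, chr15:40953232-40953299, plus strand: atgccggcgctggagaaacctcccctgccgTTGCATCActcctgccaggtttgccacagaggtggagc
JDP2, chr14:75427976-75428043, plus strand: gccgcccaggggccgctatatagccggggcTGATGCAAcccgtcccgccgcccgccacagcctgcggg
CEBPG, chr19:33374041-33374108, plus strand: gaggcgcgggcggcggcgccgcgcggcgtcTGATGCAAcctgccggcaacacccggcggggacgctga
MTHFD1L, chr6:150866327-150866394, plus strand: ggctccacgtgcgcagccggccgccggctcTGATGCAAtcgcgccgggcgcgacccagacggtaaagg
GOT1, chr10:99430785-99430852, minus strand: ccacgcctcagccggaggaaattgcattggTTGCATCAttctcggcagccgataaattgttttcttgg
PPP1R15B, chr1:204412007-204412067, minus strand: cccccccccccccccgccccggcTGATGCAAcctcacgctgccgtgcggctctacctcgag
ATF3, chr1:212565186-212565253, plus strand: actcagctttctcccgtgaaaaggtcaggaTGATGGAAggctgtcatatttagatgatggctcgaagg

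In CHAC1 and GOT1 the match lay on the opposite strand and reads TTGCATCA. The match began 68 bases before the annotated start in ASNS, 42 bases before it in CEBPG, 16 in JDP2 and 209 in CHAC1. The whole ASNS window, chr7:97872359-97872658 on the minus strand, shows how close the element sits to the start: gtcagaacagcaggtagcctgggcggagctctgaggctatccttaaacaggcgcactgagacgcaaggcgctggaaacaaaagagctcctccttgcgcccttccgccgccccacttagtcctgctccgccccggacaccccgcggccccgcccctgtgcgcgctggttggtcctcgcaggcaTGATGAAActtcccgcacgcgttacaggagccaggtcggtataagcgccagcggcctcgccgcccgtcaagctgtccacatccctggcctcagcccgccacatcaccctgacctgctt

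The cyclic AMP response element TGACGTCA, a site of the wider ATF and CREB family, occurred in 1 of the 26 genes and in 2.25% of all genes in the promoter table. That gene was PPP1R15A, and its site is shown with the same flanks and capitals.

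PPP1R15A, chr19:48872333-48872400, plus strand: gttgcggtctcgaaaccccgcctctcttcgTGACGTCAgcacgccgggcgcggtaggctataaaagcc

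Most of the 32 genes were lower in the knockdown library, by modest amounts, and the lower side held more of them than it did of genes in general. Differences are given as the log2 of knockdown RPKM plus 1 over wild type RPKM plus 1, a scale that understates the change of low genes. On this scale a gene was counted as lower where the knockdown value was at most 0.8 times the wild type value, and as higher where the wild type value was at most 0.8 times the knockdown value. With a mean of 1 RPKM or more required, 31 of the 32 genes and 12140 named genes in all were kept. NUPR1 alone fell short. Among the 31 genes, 11 (35.5%) were counted as lower, against 10.5% of all named genes, and 2 (6.45%) as higher, against 8.0% of all named genes. The genes were chosen with a lower median of ATF4 targets in these data already known. This contrast is therefore not independent support. At 1.5-fold, 2 of the 31 were lower, against a background of 3.2%, and 0 were higher, against 1.65%. At 2-fold the counts were 0 lower and 0 higher, against 0.725% and 0.643%. The median log2 change was -0.19 over the 31 genes and 0.01 over all named genes. With equal sums in both libraries it was -0.39 over the 31 genes, beside -0.17 over all named genes. Over the 14 genes with neither a named copy nor exon bases shared with another gene, a restriction chosen after the data were seen, it was -0.11 as deposited, with 8 of 14 below 0. With a pseudocount of 5 RPKM, 6 of the 31 were counted as lower, against 5.02% of all named genes, and ASNS, VLDLR, ALDH1L2, CTH and JDP2 were no longer counted. With NUPR1 included the median over 32 genes was -0.21, and 12 of 32 were counted as lower, against 11.3% of all named genes without the filter.

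Because RPKM sums differed between the libraries, the direction of the smaller differences depends on scaling. The sums were 1.17e+06 in the knockdown library and 1.02e+06 in the wild type library, mainly because loci with no gene name took 49.5% of the sum in the knockdown library and 42.3% in the wild type library. Scaling to equal sums moved the median of all named genes to -0.17. Under that scaling 28 of the 31 genes were below 0, and 23 were below the median of all genes. As deposited, 20 were below 0 and 11 above it, against 47.9% and 52.1% of all named genes, and 21 were below the median of all genes. The genes that changed sign with this scaling were ATF3, CEBPG, GOT1, GPT2, PPP1R15B, PSAT1, PSPH and SHMT2, so no direction is given for these 8. ATF5, SESN2 and ALDH18A1 were higher in the knockdown library under both scalings. The named genes kept by the filter summed to 5.91e+05 RPKM in the knockdown library and 5.88e+05 RPKM in the wild type library. Scaling to equal medians of named genes instead changed the sign of 0 of the 31 genes, with 20 below 0 and 11 above it.

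**Figure D1:**
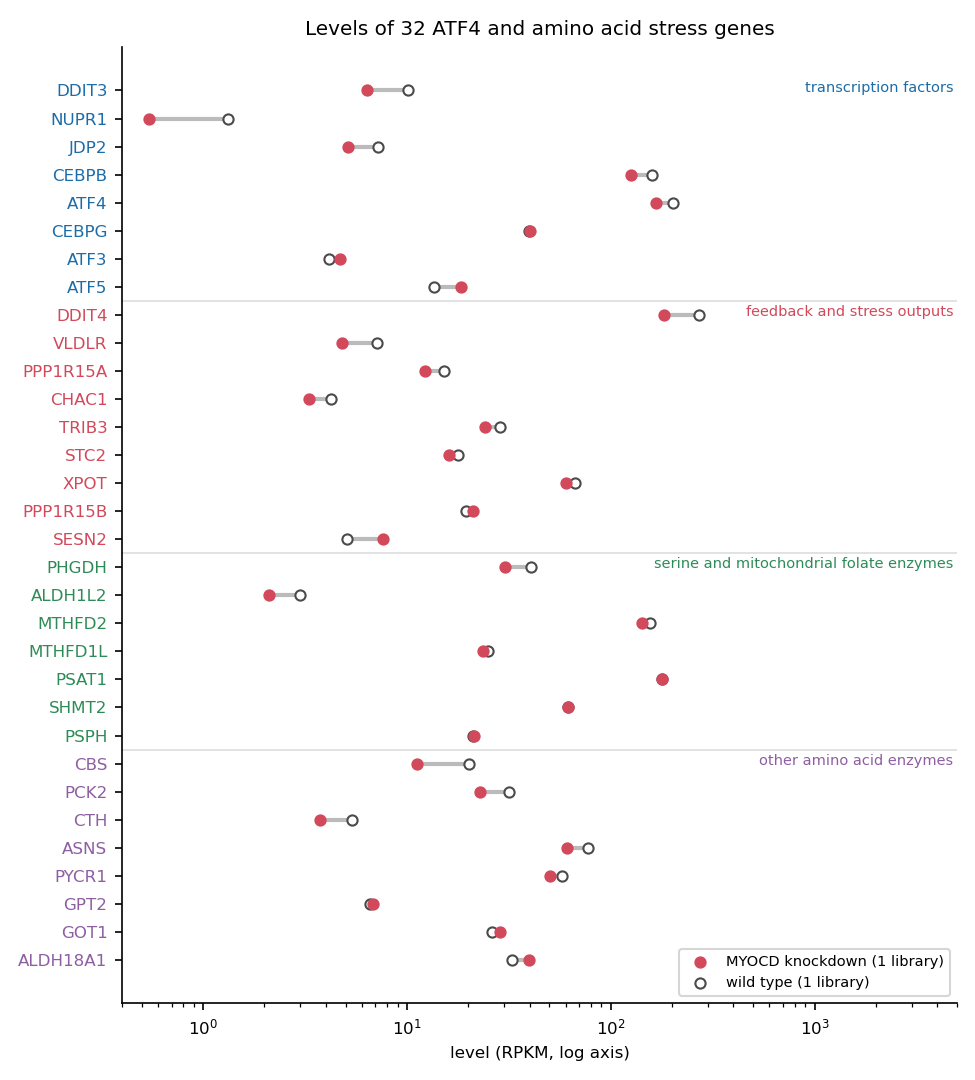
Level of each of the 32 genes in RPKM (log axis) in the MYOCD knockdown library (filled points) and the wild type library (open points), 1 library each, grouped by role and coloured by group. Levels ran from 0.542 RPKM for NUPR1 to 270 RPKM for DDIT4, and the gap between the points of a gene was small against this range.

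The transcription factors differed among themselves. ATF4, annotated on chromosome 22 from 39519695 to 39522685 on the plus strand (GENCODE release 29, GRCh38), had 167 RPKM in the knockdown library and 202 RPKM in the wild type library, a log2 change of -0.27. ATF4 has 4 annotated pseudogenes bearing its name. It ranked 410 of 12140 named genes by mean level, and 13.6% of named genes had a lower log2 change. DDIT3 encodes CHOP, the factor that ATF4 induces under prolonged stress, and had 6.37 RPKM in the knockdown library and 10.2 RPKM in the wild type library. Its log2 change of -0.60 was the lowest among the factors kept, and 2.96% of named genes were lower. The annotated DDIT3 gene, on the minus strand of chromosome 12 from 57516588 to 57521737, shares 355 of its 1307 exon bases with MARS on the opposite strand and holds MIR616 within its bounds. Whether strand was used is not stated, so reads of DDIT3 and of MARS, which had 87.2 RPKM in the knockdown library and 95.9 RPKM in the wild type library, may not be separated.

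The C/EBP partners of ATF4 were unlike each other. CEBPB, an activator of inflammatory and stress genes, had 126 RPKM in the knockdown library and 160 RPKM in the wild type library, a log2 change of -0.34. CEBPG, which pairs with ATF4 at the amino acid response elements, had 40.3 RPKM in the knockdown library and 39.5 RPKM in the wild type library. The levels of CEBPG were nearly equal, with a log2 change of 0.03. CEBPB shares 231 exon bases with its antisense gene CEBPB-AS1.

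The bZIP factors that act further along the response also went different ways. ATF5, a relative of ATF4 whose own translation is controlled through upstream reading frames, had 18.4 RPKM in the knockdown library and 13.6 RPKM in the wild type library. At a log2 change of 0.41 it was the second highest of the 32 genes, and 4.49% of named genes were higher, but at 0.23 with equal sums it was not counted as higher. The annotated ATF5 gene holds MIR4751 in its exons and shares 626 exon bases with NUP62 on the opposite strand, which was not listed by that name. ATF3, an early stress factor, had 4.67 RPKM in the knockdown library and 4.13 RPKM in the wild type library. JDP2, a repressor that pairs with JUN proteins, had 5.13 RPKM in the knockdown library and 7.19 RPKM in the wild type library, a log2 change of -0.42 that was -0.27 with a pseudocount of 5 RPKM. JDP2 shares 26 exon bases with the antisense gene AF111167.2. NUPR1, a small stress-induced chromatin protein, was near the lowest values of the table, with 0.542 RPKM in the knockdown library and 1.32 RPKM in the wild type library.

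**Figure D2:**
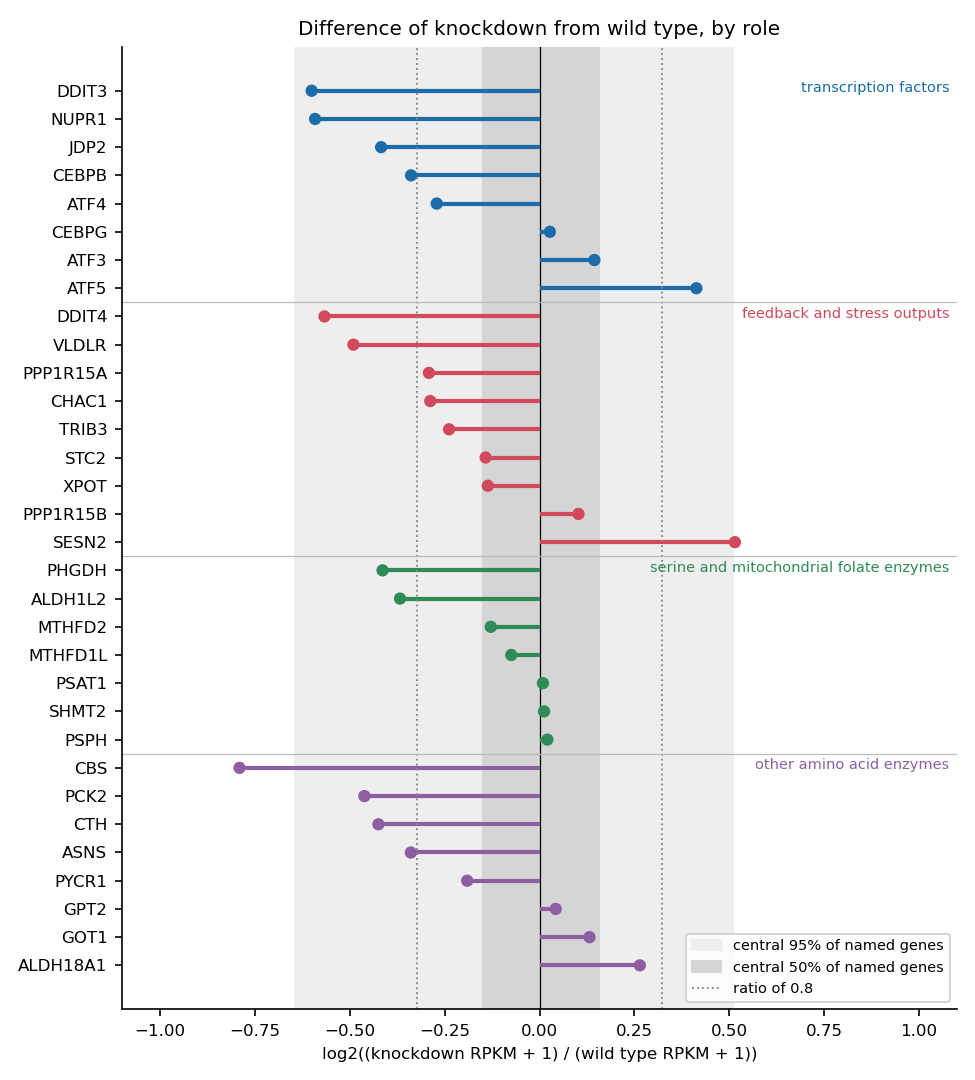
Log2 change of each of the 32 genes, knockdown over wild type with a pseudocount of 1 RPKM, grouped by role. The dark and pale bands hold the central 50% and 95% of 12140 named genes, and dotted lines mark the ratio of 0.8 in either direction. CBS lay below the 95% band at -0.79 and SESN2 just above it at 0.51.

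The feedback genes and stress outputs included the most abundant of the 32 genes. DDIT4, also called REDD1, restrains the growth kinase complex mTORC1. It had 182 RPKM in the knockdown library and 270 RPKM in the wild type library, the largest difference in level, and its log2 change was -0.57. Among named genes, 3.45% were lower. DDIT4 lies on chromosome 10 from 72273920 to 72276036 on the plus strand and shares 847 exon bases with its antisense gene DDIT4-AS1. SESN2 also restrains mTORC1, as a leucine sensor, and is a known target of p53 as well as of ATF4. It went the other way, with 7.65 RPKM in the knockdown library and 5.06 RPKM in the wild type library. Its log2 change of 0.51 was the highest of the 32 genes, and 2.42% of named genes were higher.

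The log2 changes of TRIB3 and CHAC1 were smaller. TRIB3, a pseudokinase that binds ATF4 and limits its activity, had 24.1 RPKM in the knockdown library and 28.6 RPKM in the wild type library. CHAC1, an enzyme that breaks down glutathione, had 3.31 RPKM in the knockdown library and 4.26 RPKM in the wild type library. Their log2 changes were -0.24 and -0.29, so neither was counted as lower. The log2 change of CHAC1 depended on the pseudocount, at -0.36 with 0.1 RPKM, where it was counted as lower, and -0.16 with 5 RPKM.

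The regulatory subunits that direct protein phosphatase 1 to eIF2 and so reverse the signal come in an inducible and a constitutive form. PPP1R15A (GADD34), the inducible form, had 12.3 RPKM in the knockdown library and 15.3 RPKM in the wild type library, a log2 change of -0.29. PPP1R15B, the constitutive form, had 21.0 RPKM in the knockdown library and 19.5 RPKM in the wild type library, a log2 change of 0.10. In both libraries the constitutive form had the higher level per length.

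VLDLR, a lipoprotein receptor induced through ATF4 under endoplasmic reticulum stress, had 4.79 RPKM in the knockdown library and 7.13 RPKM in the wild type library. Its log2 change was -0.49, or -0.31 with a pseudocount of 5 RPKM, and it shares 738 exon bases with VLDLR-AS1. STC2, a secreted glycoprotein, had 16.1 RPKM in the knockdown library and 17.8 RPKM in the wild type library. XPOT, the exporter of tRNA from the nucleus, had 60.4 RPKM in the knockdown library and 66.5 RPKM in the wild type library. Neither STC2 nor XPOT was counted as lower, with log2 changes of -0.14 for both.

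In the serine pathway the first enzyme was lower and the later ones were nearly equal in the libraries. PHGDH, which commits 3-phosphoglycerate to serine, had 30.2 RPKM in the knockdown library and 40.6 RPKM in the wild type library, a log2 change of -0.41. PSAT1, the transaminase of the next step, had 179 RPKM in the knockdown library and 178 RPKM in the wild type library. PSPH, the phosphatase that completes serine, had 21.4 RPKM in the knockdown library and 21.1 RPKM in the wild type library. The log2 changes of PSAT1 and PSPH were 0.01 and 0.02, in contrast to that of PHGDH, and with equal sums they were -0.19 and -0.17 against -0.61 for PHGDH. PSAT1 has 4 annotated pseudogenes bearing its name and PSPH has 1, so reads of these genes may be shared.

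The mitochondrial enzymes that turn serine into glycine and formate were close between the libraries, with 1 exception. SHMT2, which splits serine into glycine and a folate-bound carbon, had 62.0 RPKM in the knockdown library and 61.5 RPKM in the wild type library. MTHFD2, which oxidises that carbon, had 142 RPKM in the knockdown library and 156 RPKM in the wild type library. MTHFD1L, which releases formate, had 23.7 RPKM in the knockdown library and 25.04 RPKM in the wild type library. These 3 enzymes had log2 changes of 0.01, -0.13 and -0.07. MTHFD2 shares 1324 exon bases with SLC4A5 and has 7 pseudogenes. ALDH1L2, which instead burns the carbon to carbon dioxide, was the exception at 2.10 RPKM in the knockdown library and 3.001 RPKM in the wild type library, a log2 change of -0.37 that was -0.17 with a pseudocount of 5 RPKM. It shares 145 exon bases with C12orf45 on the opposite strand. As a group the 7 serine and folate enzymes had a median of -0.07, with 2 counted as lower.

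The enzymes that make cysteine from homocysteine were both lower. CBS, which joins homocysteine to serine, had 11.2 RPKM in the knockdown library and 20.1 RPKM in the wild type library. Knockdown cells thus had 55.7% of the wild type level, and the log2 change of -0.79 was the lowest of the 32 genes, with 1.42% of named genes lower. CTH, which releases cysteine in the next step, had 3.76 RPKM in the knockdown library and 5.39 RPKM in the wild type library, a log2 change of -0.42 that was -0.25 with a pseudocount of 5 RPKM. CBS lies on the minus strand of chromosome 21 from 43053191 to 43076943, and GRCh38 also annotates a near-identical copy, CBSL, from 6444869 to 6468040. CBSL was not listed, so reads could be split between the copies and the level of CBS is uncertain.

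Asparagine synthetase and the mitochondrial gluconeogenic enzyme were lower as well. ASNS, whose response element is printed above, had 60.7 RPKM in the knockdown library and 77.1 RPKM in the wild type library, a log2 change of -0.34. PCK2, which makes phosphoenolpyruvate in mitochondria, had 22.7 RPKM in the knockdown library and 31.7 RPKM in the wild type library, a log2 change of -0.46. ASNS has 4 annotated pseudogenes bearing its name and shares 1985 of its 4455 exon bases with AC079781.5, a transcript of the same strand that the table did not list by that name, so reads of the 2 may not be separated.

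The transaminases were close between the libraries, and the proline enzymes lay on opposite sides of 0. GPT2, the mitochondrial alanine transaminase, had 6.81 RPKM in the knockdown library and 6.59 RPKM in the wild type library. GOT1, the cytosolic aspartate transaminase, had 28.6 RPKM in the knockdown library and 26.0 RPKM in the wild type library. Neither was counted as lower or higher. ALDH18A1, the first enzyme of proline synthesis from glutamate, had 39.7 RPKM in the knockdown library and 32.9 RPKM in the wild type library, a log2 change of 0.26. PYCR1, the last enzyme of the same route, had 50.6 RPKM in the knockdown library and 57.8 RPKM in the wild type library, a log2 change of -0.19.

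**Figure D3:**
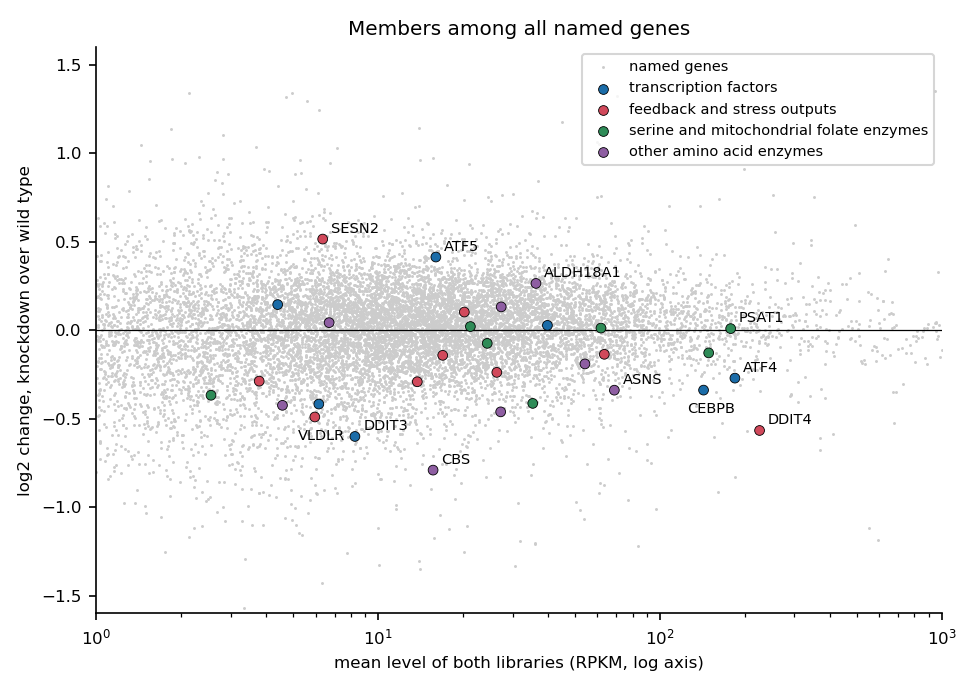
Log2 change, knockdown over wild type, against the mean level of both libraries in RPKM (log axis) for 12140 named genes (grey, those within the axes) and for 31 of the 32 genes (coloured by role). DDIT4, CEBPB and ATF4 lie below most genes of like level, while PSAT1, at a similar level, lies at 0.01.

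The spread among all named genes was narrowest at middle levels. The central 95% of log2 changes ran from -0.73 to 0.55 for genes averaging 1 to 10 RPKM. It ran from -0.51 to 0.45 at 10 to 50 RPKM, and from -0.58 to 0.67 at 50 RPKM or more. Of the 31 genes kept, CBS lay outside the range of its own band and no other gene did. When the background was limited to 9378 single protein-coding genes that hold no short RNA gene, the range at 50 RPKM or more was -0.40 to 0.38, and DDIT4 then lay below it. In that background 10.2% of genes were counted as lower and 7.19% as higher. Of the 31 genes, 16 lay below the lower quartile of all named genes (-0.15) and 3 above the upper quartile (0.16).

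The log2 changes were also set against the response element letters in the promoter window, without a test. The 8 genes with TGATGNAA had a median log2 change of -0.02, with 4 below 0 and 4 above 0. JDP2, ASNS and CHAC1 were the lowest of them, and CEBPG, PPP1R15B, GOT1 and ATF3 were near or above 0 as deposited and below 0 with equal sums. The 18 genes with a window but without the letters had a median of -0.28, with 14 below 0. Known elements of some ATF4 targets lie outside windows of this size, so a window without the letters says nothing about binding.

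The 7-base word AATATGC, taken from an earlier search of these data, was looked for in the longest annotated 3′ untranslated region of each gene. Among the 31 genes, 3 (9.68%) carried it, namely ATF3, VLDLR and JDP2, against 11.7% of 10171 named genes. Without these 3 genes the median log2 change was -0.17.

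Other genes of the pathway, from lists chosen for this comparison, had medians closer to that of all named genes. These lists, too, were chosen with earlier results of these data known, so the contrast is not independent support. Over all named genes, 10.5% were counted as lower and 8.0% as higher, the background for each list. Of 18 amino acid transporters kept, 3 were counted as lower and 1 as higher, with a median of -0.04. The higher one was SLC7A5, the large neutral amino acid exchanger, at 592 RPKM in the knockdown library and 391 RPKM in the wild type library. Its heavy chain SLC3A2 had 377 RPKM in the knockdown library and 317 RPKM in the wild type library. The lowest log2 changes were those of SLC7A2, a cationic amino acid transporter (-0.56), and SLC43A1, a carrier of branched and aromatic amino acids (-0.42). SLC38A2, the ATF4-responsive glutamine carrier, had 104 RPKM in the knockdown library and 131 RPKM in the wild type library.

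The 11 listed aminoacyl-tRNA synthetases, of which 0 were counted as lower or higher, had a median of -0.02. They ran from -0.22 for CARS and -0.18 for YARS to 0.16 for WARS and 0.21 for TARS. AARS, chosen for the same list, was left out because its locus was shared with EXOSC6, and that locus had a log2 change of -0.20. The genes that sense and set the eIF2 signal were also close, with 0 of 21 counted as lower and 1 as higher. That gene, DNAJC3, encodes an inhibitor of eIF2 kinases and had a log2 change of 0.32, with 11.1 RPKM in the knockdown library and 8.64 RPKM in the wild type library. Their median was 0.13 as deposited, with 16 of 21 above 0, but -0.04 with equal sums. The next highest was EIF2B1 at 0.30. The lowest were EIF2AK3 (PERK), the kinase of endoplasmic reticulum stress, at -0.11, and EIF2B4 at -0.06. EIF2AK4 (GCN2), the kinase of amino acid shortage, had 16.4 RPKM in the knockdown library and 14.2 RPKM in the wild type library.

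Neighbouring enzymes outside the 32 genes were little different. Among 16 other serine, glycine and folate enzymes 0 were counted as lower or higher, and the median was 0.05. The extremes were GLDC of glycine breakdown (-0.20), SHMT1 (-0.17), MAT2A (0.27) and DLD (0.27). Among 16 further amino acid enzymes 1 was counted as lower and 1 as higher. ASS1, which makes argininosuccinate, had 14.001 RPKM in the knockdown library and 19.8 RPKM in the wild type library. ODC1, the first enzyme of polyamine synthesis, had 134 RPKM in the knockdown library and 82.1 RPKM in the wild type library, a log2 change of 0.70. PYCRL, another pyrroline carboxylate reductase, was next highest at 0.30 and GLUL, glutamine synthetase, next lowest at -0.15.

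**Figure D4:**
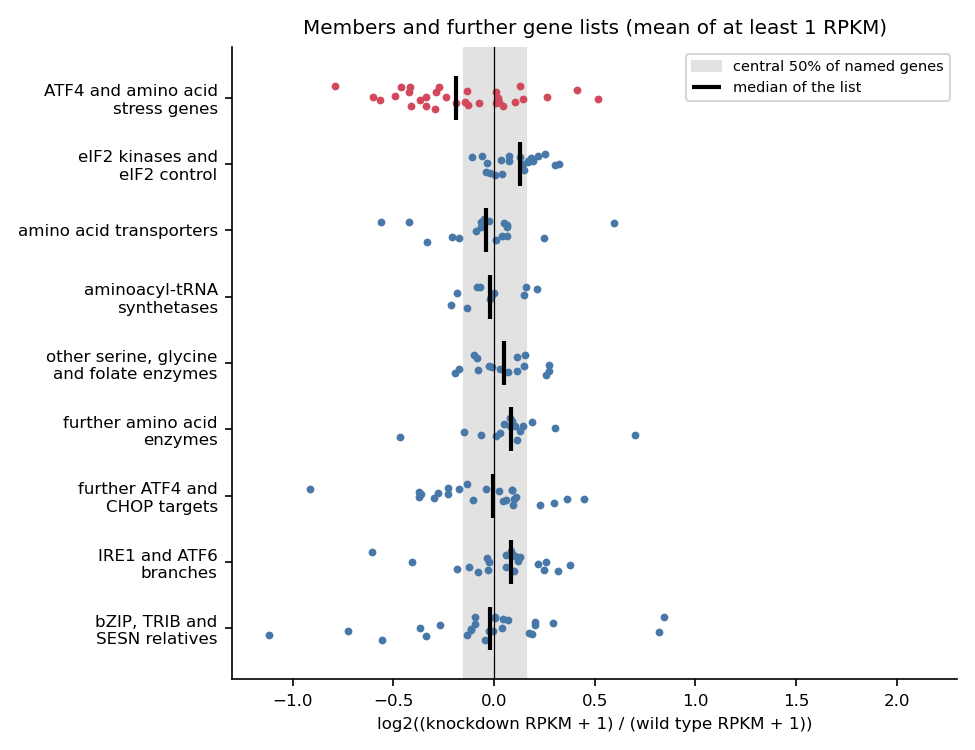
Log2 change of each gene (points) and the median (black bar) for 31 of the 32 genes and for 8 further lists, all filtered at a mean of 1 RPKM. The grey band holds the central 50% of named genes. The median of the ATF4 and amino acid stress genes is -0.19, and those of the further lists run from -0.04 to 0.13. Genes and lists were chosen with earlier results of these data known.

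Further reported targets of ATF4 and CHOP were spread to both sides, with 12 of 24 below 0 and a median of -0.01. Of these, 4 were counted as lower and 2 as higher, against 10.5% and 8.0% of all named genes. GDF15, a secreted stress cytokine that p53 also induces, had 111 RPKM in the knockdown library and 211 RPKM in the wild type library, a log2 change of -0.91. GADD45B was next lowest at -0.37. The highest were GADD45A, a growth arrest gene, at 0.45 and the death receptor TNFRSF10B at 0.36. The other branches of the unfolded protein response, those of IRE1 and ATF6, had a median of 0.08 over 21 genes. ERN1, which encodes IRE1, had 3.56 RPKM in the knockdown library and 5.95 RPKM in the wild type library. The chaperone partner DNAJB11 had a log2 change of -0.41. HSPA5 (BiP), the leading chaperone of this response, had 232 RPKM in the knockdown library and 193 RPKM in the wild type library. DNAJB9 and DERL2 were highest at 0.32 and 0.38. With equal sums the medians of the further lists ran from -0.22 for the synthetases to -0.04 for the eIF2 genes, around the -0.17 of all named genes.

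The identity of the cells was checked on markers. Of 22 lung epithelial and A549 genes 18 were listed, while SFTPC, SFTPB, SFTPA1 and NKX2-1 of alveolar cells were not. KRT8, among the highest, had 1521 RPKM in the knockdown library and 1545 RPKM in the wild type library. Others were as low as the fibroblast and leukocyte genes below. EPCAM had 2.15 RPKM in the knockdown library and 2.24 RPKM in the wild type library. In the same order AGER had 1.34 and 2.42 RPKM, and NAPSA had 0.771 and 1.27 RPKM. Fibroblast genes summed to 3.91 RPKM in the knockdown library and 4.33 RPKM in the wild type library, with 2 of 8 listed. Leukocyte genes summed to 4.10 RPKM in the knockdown library and 3.71 RPKM in the wild type library, with 2 of 6 listed and PTPRC not among them, and of 4 endothelial genes none was listed. Smooth muscle genes, some of them known myocardin targets, summed to 17.4 RPKM in the knockdown library and 13.3 RPKM in the wild type library, with 2 of 6 listed. Nearly all of that was ACTA2, smooth muscle actin, at 16.9 RPKM in the knockdown library and 12.4 RPKM in the wild type library. MYH11, the other one listed, went the other way at low values. It had 0.577 RPKM in the knockdown library and 0.914 RPKM in the wild type library. CNN1, TAGLN, DES and LMOD1 were not listed. In bulk RNA, fewer cells in a state and less RNA per cell cannot be told apart.

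**Figure D5:**
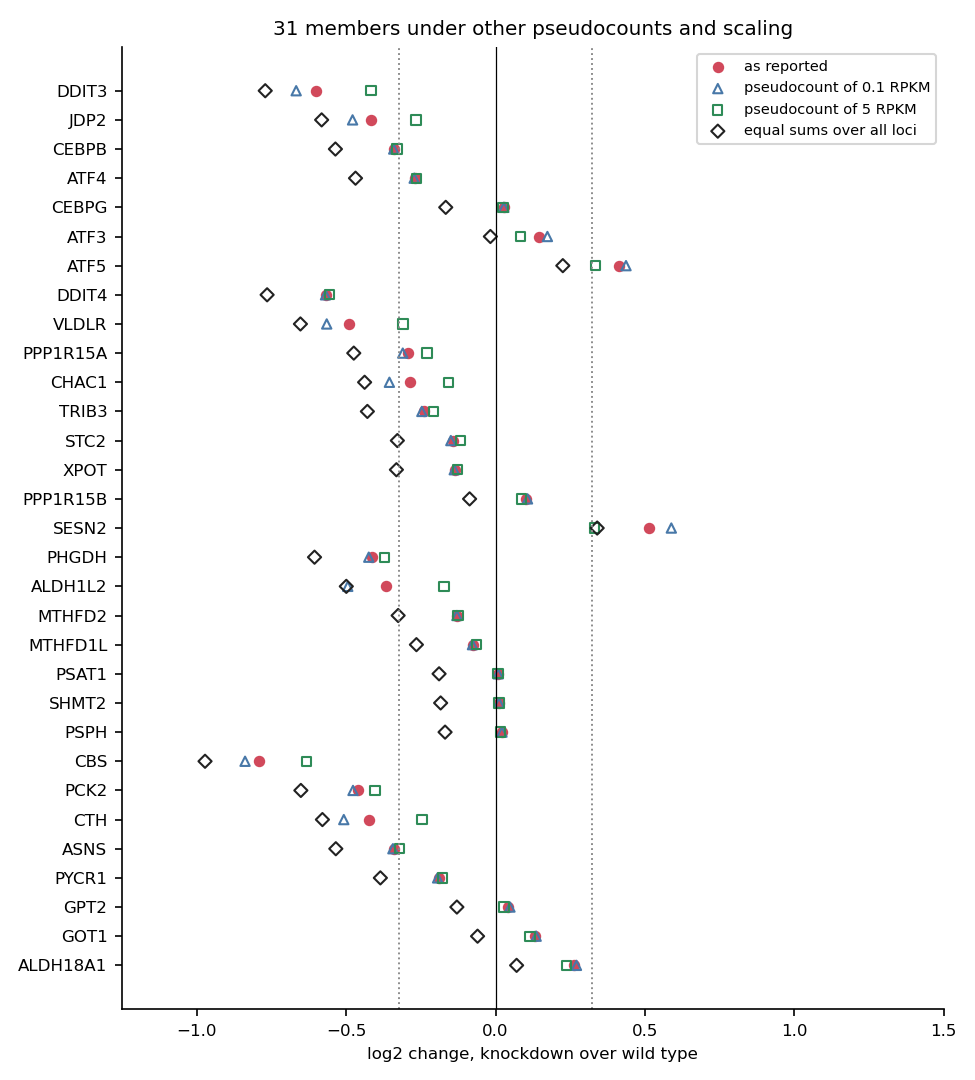
Log2 change of 31 of the 32 genes as reported, with pseudocounts of 0.1 and 5 RPKM, and with libraries scaled to equal sums. Dotted lines mark the ratio of 0.8 in either direction. Low genes such as ALDH1L2 and CTH move with the pseudocount, and equal sums move each gene to the left.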

How the data were processed

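RNA was read from 1 MYOCD knockdown and 1 wild type A549 library, made with a TruSeq RNA kit from 1 ug of total RNA, per the labels. The deposited values are RPKM, computed by the authors; per the submitters' processing notes, Cufflinks 2.2.1 and TopHat2 2.0.10 were used, in no stated role. The same notes name a fruit fly build, BDGP5, beside the human GRCh38.p12. The annotation, filters and use of strand are not stated. The depth is unknown, since the values are not counts. In every locus the higher value was at least 0.652 RPKM.

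Of 14952 loci, 1909 without a gene name and 21 whose names had become dates were left out, and lines of the same name (100 names) were summed. Genes averaging 1 RPKM or more were compared with a pseudocount of 1 RPKM, and size rules (a ratio of 0.8, 1.5-fold and 2-fold) stood in place of a test. Every gene of the set was to be named, and of each further list the 2 highest, the 2 lowest and those past 1.5-fold. SLC38A2, EIF2AK4, HSPA5 and SESN1 were named outside this rule, and MARS for its overlap with DDIT3. The genes, lists and roles were chosen with earlier results of these data known, among them a lower median of ATF4 targets, so the counts are not independent support. Gene bounds came from GENCODE release 29 and promoters from RefSeq. Python 3.11.15, numpy 2.4.6 and pandas 2.3.3 were used, and the size rules were tested on simulated data. The simulated scatter was smaller than the spread of named genes here, and only genes of at least 5 RPKM were scored. The simulation therefore gives no rate of false calls for these libraries.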

Additional observations from a re-analysis of the deposited data

How the results depend on the processing

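Scaling and the pseudocount moved the counts. With a pseudocount of 5 RPKM, 6 genes were counted as lower and 1 was at least 1.5-fold lower, in place of 11 and 2, with a median of -0.16, and 5.02% of named genes were then counted as lower in place of 10.5%. With equal sums over all loci the median was -0.39, 19 genes were counted as lower, 6 were at least 1.5-fold lower and 1 was counted as higher. All genes moved with that scaling, and of named genes 25.1% were then counted as lower and 2.71% as higher. The share of all named genes at least 1.5-fold lower was not computed for these 2 settings, so no background stands beside those counts. A pseudocount of 0.1, equal medians, no filter, a mean of at least 5 RPKM and the highest line of each name kept the median below 0, from -0.21 to -0.14, with counts within 1.5 times those reported. Adding loci of several genes was not run because none named a gene of the set. In settings added after the data were seen, the median was -0.19 without the 2 genes holding a short RNA gene. It was -0.11 over the 14 genes with neither a named pseudogene or copy nor exon bases shared with another gene, and -0.17 without the 3 genes carrying AATATGC. No paired analysis was possible because each group had 1 library. Without counts, the precision of low genes such as NUPR1, ALDH1L2 and CHAC1 cannot be given.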

Other observations

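A few relatives of the set that belong to other responses, DBP, FOSL1, JUN and MAFF, differed by more than most of the 32 genes. Among 27 bZIP, TRIB and SESN relatives kept by the filter, the median was -0.02, with 5 counted as lower and 2 as higher. Of all named genes, 10.5% were counted as lower and 8.0% as higher. FOSL1 and JUN, which form the AP-1 factor, had 47.9 and 22.7 RPKM in the knockdown library, against 26.2 and 12.4 RPKM in the wild type library. DBP, a factor of circadian output, had 5.95 RPKM in the knockdown library and 14.1 RPKM in the wild type library, a log2 change of -1.12. MAFF, a small MAF protein, had 3.79 RPKM in the knockdown library and 6.91 RPKM in the wild type library. SESN1, a sestrin that p53 induces, had 9.35 RPKM in the knockdown library and 7.44 RPKM in the wild type library, on the same side as SESN2. With a log2 change of 0.30, SESN1 was not counted as higher.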
